A study of Saccharomyces cerevisiae with 15 samples.

Results

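SUC2, the invertase gene of budding yeast, and 9 genes of the glucose repression machinery (MIG1, MIG2, MIG3, SNF1, SNF4, REG1, MTH1, STD1 and RGT1) were followed in 3 kinds of stationary phase cells. They were chosen by symbol as 10 of the 5449 Saccharomyces cerevisiae genes measured on Affymetrix Yeast Genome 2.0 arrays. All samples were strain BY4741, a haploid laboratory yeast of the a mating type, grown with shaking at 30 °C and taken at day 3 in YPD, a rich medium with 2% glucose, with no further treatment. Percoll, a density gradient medium, separated a WT high density (HD) and a WT low density (LD) fraction, and the Rho0 LD group is the low density fraction of a Rho0 strain of the same background. Rho0 cells lack mitochondrial DNA and cannot respire. Each group had 5 biological replicates on 5 arrays. Because Rho0 HD cells are not among the groups, genotype is compared within the low density fraction only, and in Rho0 LD against WT HD genotype and density cannot be told apart. The labels do not say whether fractions of the same number came from the same culture.

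Yeast cells that have glucose keep genes for other sugars silent. The zinc finger repressor Mig1 and its relatives Mig2 and Mig3 bind such promoters and recruit the corepressor Cyc8-Tup1, and SUC2 is the textbook target. When glucose runs out, the Snf1 kinase, the yeast AMP-activated kinase, phosphorylates Mig1, which then leaves the nucleus. Snf4 is the regulatory subunit of that kinase, and Reg1 directs the phosphatase Glc7 against it. A parallel branch starts at the membrane sensors Snf3 and Rgt2: without glucose, Mth1 and Std1 let the repressor Rgt1 hold down hexose transporter genes, MIG2 and MIG3. Most of this control acts on proteins, while the arrays measured mRNA.

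Values are log2 signals after RMA, which sets every transcript relative to the others on its array, so that 1 log2 is a 2-fold difference and levels of different genes cannot be compared. The background level was 2.56, the 95th percentile of probe sets for fission yeast. In bulk RNA, fewer cells that express a gene and less RNA per cell cannot be told apart. Several controls moved with the groups. The 5′ probe set of 25S ribosomal RNA read between 10.74 and 11.82 in WT LD, against 7.65 to 7.97 in WT HD and 7.32 to 7.95 in Rho0 LD. Its middle probe set averaged 10.99, 14.17 and 13.28 in WT HD, WT LD and Rho0 LD, with no overlap of groups. The ACT1 3′ minus 5′ difference averaged 1.90 in WT LD, 1.57 in WT HD and 1.61 in Rho0 LD. The poly-A spike-ins averaged 10.12, 10.34 and 9.66 in WT HD, WT LD and Rho0 LD. With arrays shifted to equal spike-in means the median change of all genes moved from -0.17 to -0.40 in WT LD against WT HD, from 0.25 to 0.94 in Rho0 LD against WT LD and from 0.03 to 0.48 in Rho0 LD against WT HD. The split of called genes moved with it, from 1425 higher and 2238 lower to 880 and 2462, from 2430 and 1235 to 3955 and 464, and from 2067 and 1877 to 2727 and 1022. With S. cerevisiae genes quantile-normalized by themselves the first 2 splits were 1774 and 1792, and 1875 and 1574, and with equal S. cerevisiae medians the second was 1728 and 1775.

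The strain label was checked against markers. On average 5112.8, 4860 and 5032.2 of the 5449 genes lay above background per array in WT HD, WT LD and Rho0 LD. A marker above background is therefore not by itself a sign of a cell type. Of 6 genes specific to mating type a, 5 were above background in WT HD (BAR1 was not) and 6 in both other groups. Of the 4 genes deleted in BY4741, MET17 and URA3 stayed at background in every group. LEU2 averaged 2.67, 2.90 and 2.70 in WT HD, WT LD and Rho0 LD, near background. HIS3 averaged 6.09, 5.98 and 5.87, well above it. Of the 4 genes specific to the opposite mating type, 4, 3 and 3 were above background in WT HD, WT LD and Rho0 LD (MF(ALPHA)1 was not in the last pair). Their summed linear signal ran from 10.07 to 10.84, 8.69 to 9.32 and 9.10 to 9.62 log2. Most of that sum came from SAG1 (means 10.27, 8.97 and 9.34), while STE3 averaged 3.94, 3.63 and 2.93. Of 8 markers of sporulating cells 7, 6 and 8 were above background, with sums from 9.15 to 9.497, 7.46 to 7.70 and 7.86 to 8.11, SPO11 at background in WT HD and SPO11 and SPO19 in WT LD. The sums of the a-specific genes ran from 10.72 to 11.07, 11.94 to 12.22 and 11.06 to 11.22. The part of these differences in the results was not tested. Genes on mitochondrial DNA, which would check the Rho0 label, and markers of the density fractions were not analysed here.

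SUC2 (YIL162W, chromosome IX) stepped up through the 3 groups without overlap. SUC2 makes a secreted and an intracellular form of invertase, which splits sucrose and raffinose, from transcripts that one probe set does not separate. On the 5 WT HD arrays its signal was 7.53, 7.42, 7.68, 7.05 and 7.09 log2. On the WT LD arrays it was 9.49, 9.65, 10.34, 10.04 and 9.96. On the Rho0 LD arrays it was 13.00, 12.79, 12.72, 12.72 and 12.79. Every WT LD array thus lay above every WT HD array, and every Rho0 LD array above both. The WT LD mean of SUC2 was 5.84-fold above WT HD (2.55 ± 0.16 log2, difference ± SE, limma adjusted p = 1.14e-10). The Rho0 LD mean of SUC2 was 7.49-fold above WT LD (2.91 ± 0.16, adjusted p = 1.92e-11). From WT HD to Rho0 LD SUC2 rose 43.7-fold, by 5.45 ± 0.16 log2 (adjusted p = 1.04e-15), the rise ranked 2 among 5449 genes. Its rises in the other comparisons ranked 51 and 11. The spread of SUC2 was smallest in Rho0 LD (SD 0.11, against 0.34 in WT LD and 0.28 in WT HD). The median SD of all genes was smallest there as well (0.17, against 0.21 in WT LD and 0.28 in WT HD).

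The ribosomal RNA probe sets moved with the groups as well. The 25S 5′ signal of Rho0 LD differed from that of WT HD by -0.12 log2 (exact two-sided permutation test, adjusted p = 0.412 over 27 tests, 5 arrays each), and the 25S middle signal by 2.29 (exact test, adjusted p = 0.0113), where SUC2 differed by 5.45. Their part in the rise of SUC2 was not tested. Over all 11 other settings and every array left out in turn, the changes of SUC2 lay between 2.32 and 2.71, 2.64 and 3.59, and 5.31 and 5.90 in the 3 comparisons and were called each time.

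**Figure D1:**
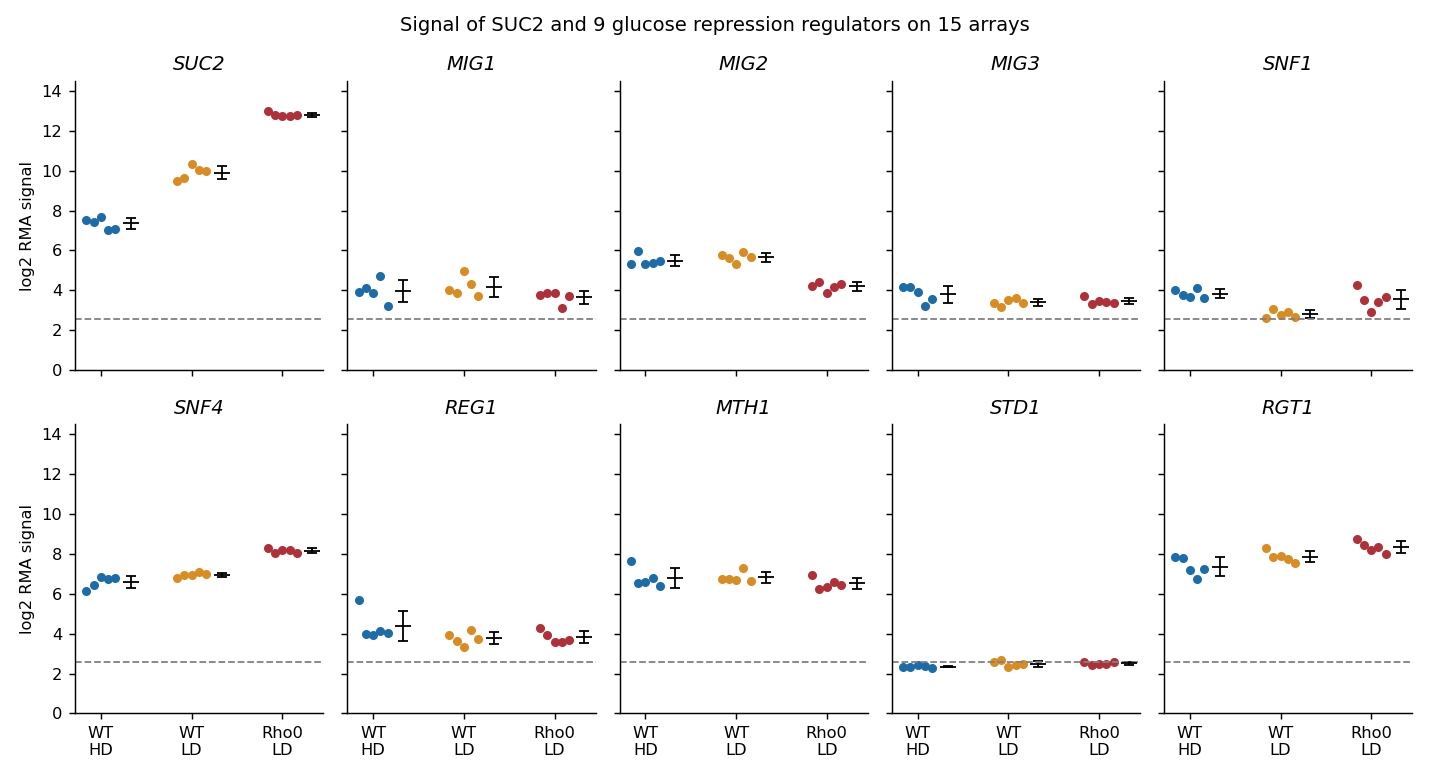
Log2 RMA signal (vertical axis) of SUC2 and its 9 regulators on the 5 arrays of each group (horizontal axis), with 1 point per array, the mean with SD to the right of the points, and the background level of 2.56 as a dashed line. SUC2 climbs from about 7.35 to 12.80 with no overlap of groups, SNF4 and MIG2 set Rho0 LD apart, and STD1 lies at the background level throughout.

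The kinase subunits SNF1 and SNF4 did not move alike. SNF4 (YGL115W, chromosome VII), for the subunit that senses adenine nucleotides in the kinase, was highest in Rho0 LD. Its signal was 6.12, 6.42, 6.86, 6.76 and 6.82 log2 on the WT HD arrays. It was 6.82, 6.96, 6.95, 7.08 and 7.01 in WT LD. It was 8.32, 8.07, 8.20, 8.18 and 8.05 in Rho0 LD. The Rho0 LD arrays stood clear above all others, while the lowest WT LD array fell within the range of WT HD. SNF4 rose 2.30-fold from WT LD to Rho0 LD (1.20 ± 0.13 log2, limma adjusted p = 2.66e-07) and 2.96-fold from WT HD to Rho0 LD (1.57 ± 0.13, adjusted p = 4e-09). The step of SNF4 from WT HD to WT LD was 0.37 ± 0.13 (adjusted p = 0.0215), and this call was lost without WT HD replicate 1 (0.25, adjusted p = 0.0674) or 2 (0.32, adjusted p = 0.0521) and with equal spike-in (0.14, adjusted p = 0.609) or S. pombe signals (0.29, adjusted p = 0.0644).

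SNF1 (YDR477W, chromosome IV), for the catalytic subunit, was lowest in WT LD. Its signal was 4.01, 3.75, 3.68, 4.13 and 3.59 log2 in WT HD. It was 2.63, 3.08, 2.76, 2.89 and 2.66 in WT LD, just above background. It was 4.25, 3.50, 2.92, 3.42 and 3.66 in Rho0 LD. WT LD lay below WT HD with no overlap, whereas the Rho0 LD arrays spread across both, replicate 3 falling among the WT LD values. SNF1 fell 2.04-fold from WT HD to WT LD (-1.03 ± 0.19 log2, adjusted p = 8.97e-05) and rose 1.68-fold from WT LD to Rho0 LD (0.75 ± 0.19, adjusted p = 0.00177). The rise of SNF1 was not called once S. cerevisiae genes were quantile-normalized by themselves (0.39, adjusted p = 0.0532). Between Rho0 LD and WT HD SNF1 differed by -0.28 log2 with an interval from -0.68 to 0.11 (adjusted p = 0.181), and by -0.46 (adjusted p = 0.0164) without Rho0 LD replicate 1. The fall of SNF1 in WT LD came with the 25S and ACT1 3′ minus 5′ values of that group given above, and their part in it was not tested.

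A difference of signals within each array does not change when whole arrays are shifted, though it does with quantile normalization, and 4 pairs of genes were compared in this way after their values had been seen. With 5 arrays a group the exact test cannot go below p = 0.00794. The change of SNF4 exceeded that of SNF1 by 1.40 log2 from WT HD to WT LD (exact permutation test, two-sided, p = 0.00794, adjusted p = 0.0159 over 12 tests). From WT HD to Rho0 LD the excess of SNF4 was 1.85 (exact p = 0.00794, adjusted p = 0.0159). From WT LD to Rho0 LD it was 0.46 (exact p = 0.0635, adjusted p = 0.0693), which did not pass, and with quantile normalization it was 0.70 (exact p = 0.00794, adjusted p = 0.0136).

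REG1 (YDR028C, chromosome IV), for the phosphatase targeting subunit that keeps Snf1 inactive on glucose, was called in no comparison as the values stand, but in each of them with another scaling. Its signal was 5.70, 3.97, 3.95, 4.16 and 4.06 log2 in WT HD, from 3.36 to 4.17 in WT LD and from 3.60 to 4.29 in Rho0 LD. WT HD replicate 1 stood far above the other 4 arrays of its group, and the 3 groups overlapped. REG1 differed by -0.59 log2 (interval from -1.15 to -0.02, adjusted p = 0.0618) between WT LD and WT HD, and by -0.25 without that array (adjusted p = 0.187). The same difference was called without WT HD replicate 2 or 3 or WT LD replicate 4 (-0.69 each, adjusted p from 0.0415 to 0.0432), with equal S. pombe medians (-0.67, adjusted p = 0.0386) and with equal spike-in signals (-0.82, adjusted p = 0.00987). Its difference was 0.04 (from -0.52 to 0.61, adjusted p = 0.896) between Rho0 LD and WT LD, and 0.73 (adjusted p = 0.0148) with equal spike-in signals. It was -0.54 (from -1.11 to 0.02, adjusted p = 0.0776) between Rho0 LD and WT HD, where it was called without Rho0 LD replicate 1 (-0.66, adjusted p = 0.0466) and with equal S. cerevisiae medians (-0.69, adjusted p = 0.0222).

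Among the repressors MIG1, MIG2 and MIG3, MIG2 (YGL209W, chromosome VII) was called in 2 comparisons, MIG3 in 1 and MIG1 in 0. Its signal was 5.34, 5.99, 5.30, 5.39 and 5.45 log2 in WT HD. It was 5.76, 5.61, 5.32, 5.92 and 5.65 in WT LD. It was 4.24, 4.44, 3.84, 4.17 and 4.29 in Rho0 LD. The WT groups overlapped, and all Rho0 LD arrays lay below them. MIG2 fell 2.75-fold from WT LD to Rho0 LD (-1.46 ± 0.15 log2, limma adjusted p = 1.07e-07) and 2.46-fold from WT HD to Rho0 LD (-1.30 ± 0.15, adjusted p = 2.95e-07). Both falls of MIG2 were called under all alternatives, from -1.73 to -0.77 and from -1.44 to -0.85. Between WT LD and WT HD MIG2 differed by 0.16 (interval from -0.16 to 0.48, adjusted p = 0.366).

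MIG1 (YGL035C, chromosome VII), for the main repressor of SUC2, was among the more variable genes within groups, with an SD of 0.54 in WT HD, where the median SD of all genes was 0.28. Its signal ranged from 3.21 to 4.71 log2 in WT HD, from 3.72 to 4.95 in WT LD and from 3.10 to 3.87 in Rho0 LD. The 3 ranges overlapped, and MIG1 was called in no comparison. It differed by 0.21 (interval from -0.31 to 0.74, adjusted p = 0.464) between WT LD and WT HD, and by 0.57 (adjusted p = 0.0442) with quantile normalization. It differed by -0.51 (from -1.03 to 0.01, adjusted p = 0.0797) between Rho0 LD and WT LD, and -0.30 (from -0.82 to 0.23, adjusted p = 0.293) between Rho0 LD and WT HD. The Rho0 LD against WT LD difference of MIG1 was called with equal S. cerevisiae medians (-0.77, adjusted p = 0.01), after quantile normalization (-0.86, adjusted p = 0.00412), with array weights (-0.69, adjusted p = 0.0129) and without WT LD replicate 5 (-0.62, adjusted p = 0.0431), and turned to 0.17 with equal spike-in signals.

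MIG3 (YER028C, chromosome V), for a related repressor, ranged from 3.20 to 4.16 log2 in WT HD, from 3.17 to 3.60 in WT LD and from 3.33 to 3.72 in Rho0 LD. The wide WT HD range took in all but 1 of the arrays of the other groups. MIG3 was called lower in WT LD than in WT HD (-0.40 ± 0.16, adjusted p = 0.039), a call that was lost without any one of WT HD replicates 1, 2 and 3 and WT LD replicates 1, 2 and 5 (adjusted p up to 0.109) and turned to 0.02 after quantile normalization. MIG3 differed by 0.06 (interval from -0.29 to 0.40, adjusted p = 0.778) between Rho0 LD and WT LD, where it was called at 0.74 with equal spike-in signals (adjusted p = 0.00366), and by -0.34 (from -0.69 to 0.002, adjusted p = 0.0687) between Rho0 LD and WT HD. The last difference of MIG3 was called without Rho0 LD replicate 1 (-0.41, adjusted p = 0.0424), WT HD replicate 4 (-0.49, adjusted p = 0.00482) or WT HD replicate 5 (-0.41, adjusted p = 0.0447) and with equal S. cerevisiae medians (-0.48, adjusted p = 0.0107).

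Within arrays, the change of MIG2 lay below that of MIG3 by 1.51 log2 from WT LD to Rho0 LD (exact permutation p = 0.00794, adjusted p = 0.0159) and by 0.96 from WT HD to Rho0 LD (difference of -0.96, exact p = 0.00794, adjusted p = 0.0159). From WT HD to WT LD the change of MIG2 exceeded that of MIG3 by 0.56 (exact p = 0.0317, adjusted p = 0.0476), but by 0.27 with quantile normalization, which did not pass (exact p = 0.254, adjusted p = 0.277). Against MIG1 the change of MIG2 was -0.95 from WT LD to Rho0 LD (exact p = 0.0397, adjusted p = 0.0476) and -1.003 from WT HD to Rho0 LD (exact p = 0.0159, adjusted p = 0.0272). From WT HD to WT LD that difference was -0.06 (exact p = 0.889).

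The glucose sensing branch was represented by RGT1, MTH1 and STD1. RGT1 (YKL038W, chromosome XI), for the DNA-binding repressor, had a signal of 7.86, 7.79, 7.20, 6.75 and 7.25 log2 in WT HD. It was 8.31, 7.84, 7.88, 7.77 and 7.54 in WT LD. It was 8.76, 8.44, 8.18, 8.34 and 7.99 in Rho0 LD. Neighbouring groups overlapped, and the WT HD and Rho0 LD arrays did not. RGT1 rose 1.96-fold from WT HD to Rho0 LD (0.97 ± 0.20 log2, limma adjusted p = 0.000237), which was called in all settings but treat against a 1.5-fold change (adjusted p = 0.0794). The smaller steps of RGT1, 0.50 ± 0.20 from WT HD to WT LD (adjusted p = 0.0342) and 0.47 ± 0.20 from WT LD to Rho0 LD (adjusted p = 0.0428), depended on single arrays and on scaling. The former was lost without any one of WT HD replicates 3, 4 and 5 and WT LD replicates 1, 2 and 3 (adjusted p up to 0.112), and the latter without any one of Rho0 LD replicates 1, 2 and 4 and WT LD replicates 2, 3, 4 and 5 (adjusted p up to 0.122). The former came to 0.27 with equal spike-in signals (adjusted p = 0.36) and 0.42 with equal S. pombe medians (adjusted p = 0.0747), and the latter to 0.21 with equal S. cerevisiae medians (adjusted p = 0.352) and 1.16 with equal spike-in signals.

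MTH1 (YDR277C, chromosome IV), for the corepressor of Rgt1 that is degraded on glucose, was called in no comparison. Its signal was 7.67, 6.55, 6.57, 6.81 and 6.37 log2 in WT HD, 6.74, 6.74, 6.71, 7.30 and 6.64 in WT LD and 6.95, 6.26, 6.36, 6.59 and 6.44 in Rho0 LD. The groups overlapped, with WT HD replicate 1 at the top as for REG1. MTH1 differed by 0.03 (interval from -0.40 to 0.47, adjusted p = 0.901) between WT LD and WT HD. It differed by -0.31 (from -0.74 to 0.13, adjusted p = 0.201) between Rho0 LD and WT LD and -0.27 (from -0.71 to 0.16, adjusted p = 0.243) between Rho0 LD and WT HD. With equal S. cerevisiae medians the Rho0 LD against WT LD difference was -0.57 (adjusted p = 0.0163), and with equal spike-in signals it was 0.38 (adjusted p = 0.138).

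STD1 (YOR047C, chromosome XV), the paralog of MTH1, was not measured above background. Its means were 2.35 ± 0.04 in WT HD, 2.50 ± 0.14 in WT LD and 2.51 ± 0.07 in Rho0 LD (SD, n = 5), all under 2.56, with 2 arrays of WT LD and 2 of Rho0 LD just over it. No fold change of STD1 is given for that reason. It was called in no comparison, although the WT HD and Rho0 LD arrays did not overlap (0.16 log2, adjusted p = 0.151), and with other scalings of the arrays it was called in either direction.

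Over the 10 genes, 5 were called between WT LD and WT HD, 3 higher (SUC2, SNF4 and RGT1) and 2 lower (SNF1 and MIG3), where 67.2% of all genes were called, 26.2% higher and 41.1% lower. This split of the 10 genes turned with scaling, to 5 higher and 1 lower with quantile normalization, 4 and 1 with equal S. cerevisiae medians, and 1 and 3 with equal S. pombe or spike-in signals. Between Rho0 LD and WT LD 5 were called as well, 4 higher (SUC2, SNF1, SNF4 and RGT1) and 1 lower (MIG2), where the background was 67.3%, 44.6% higher and 22.7% lower. It became 3 higher and 3 lower with quantile normalization, 3 and 4 with equal S. cerevisiae medians and 7 and 1 with equal spike-in signals. Between Rho0 LD and WT HD 4 were called, SUC2, SNF4 and RGT1 higher and MIG2 lower, against a background of 72.4%, 37.9% higher and 34.4% lower, and with equal S. cerevisiae medians 3 were higher and 4 lower. As the values stand, the share of called genes among the 10 was below that of all genes in each comparison. Between Rho0 LD and WT LD it was above that share with equal S. cerevisiae medians, where 3503 of 5449 genes were called. With equal spike-in signals 4419 of 5449 were called there, beside the 7 and 1 given above. The gaps amount to few genes in a set of 10 and were not tested. As the values stand, 2, 3 and 3 of the 10 genes were called with at least a 2-fold change, against 28%, 27.7% and 38.1% of all genes. Groups did not overlap for 2, 3 and 5 of the 10 genes, against 47.9%, 57.2% and 58.9% of all genes. The median change of the 10 genes was 0.15, 0.05 and -0.28 log2, beside -0.17, 0.25 and 0.03 over all genes. The comparisons share groups and are not independent.

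The counts moved with single arrays and with scaling. Without WT HD replicate 1, WT LD replicate 1 or WT LD replicate 2 there were 3 calls between WT LD and WT HD, and without Rho0 LD replicate 1 there were 7 between Rho0 LD and WT HD.

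**Figure D2:**
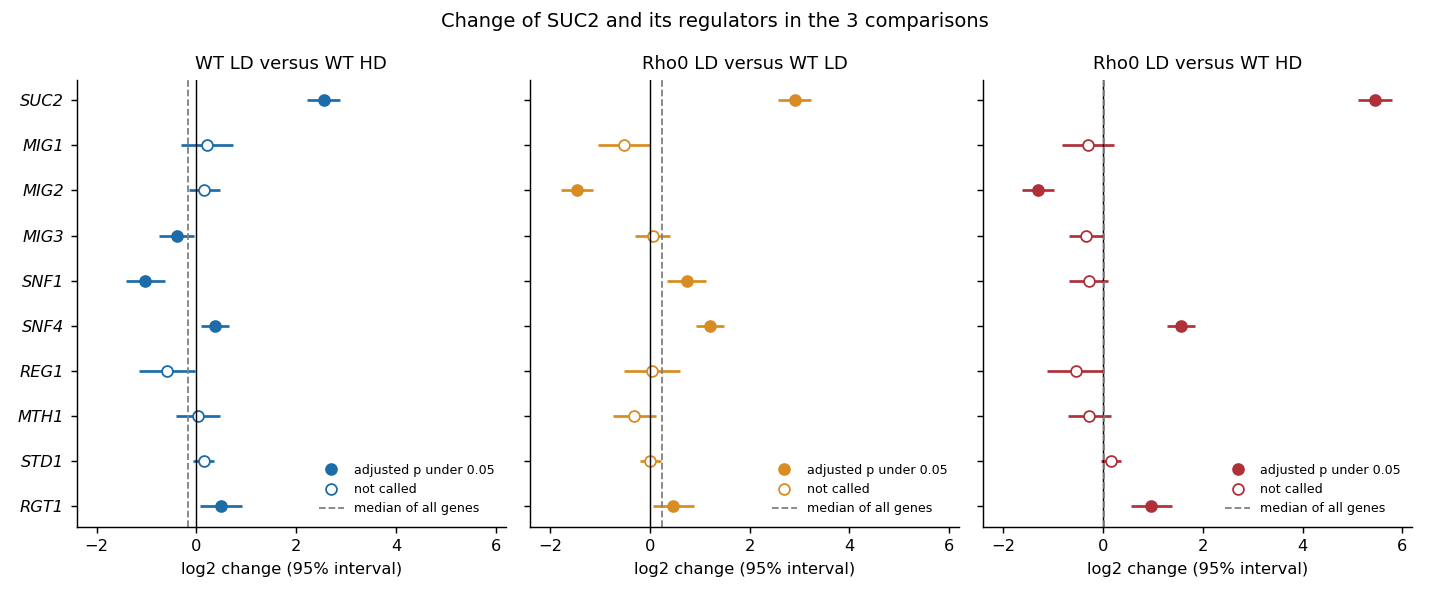
Log2 change (horizontal axis) of SUC2 and its 9 regulators in each comparison, with the 95% interval of the limma fit as a line; filled points have an adjusted p under 0.05, and the dashed line is the median change of all 5449 genes. SUC2 lies at 2.55, 2.91 and 5.45, apart from the regulators, which lie between -1.46 and 1.57.

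Apart from SUC2 no gene of the set spanned more than 1.57 log2 between its highest and lowest group mean (SNF4), followed by MIG2 with 1.46, SNF1 with 1.03 and RGT1 with 0.97. MIG3, MIG1, REG1, MTH1 and STD1 spanned 0.40, 0.51, 0.59, 0.31 and 0.16.

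The genes most like SUC2 across arrays were found by the root mean square difference over 15 arrays, after the mean of each gene was removed, among 4940 other genes with a standard name. EGT2, for a cell wall protein of daughter cell separation, came nearest at 0.25 log2, where the median gene lay at 2.25. Its group means were 5.51 in WT HD, 7.93 in WT LD and 10.69 in Rho0 LD. GSY2, for glycogen synthase, followed at 0.38, HPF1, for a cell wall mannoprotein, at 0.46, UBP11, for a ubiquitin protease, at 0.47 and CPR5, for a cyclophilin, at 0.53. The WT HD mean of UBP11, 2.79, was near the background level. By this distance none of the other 9 genes of the set was close to SUC2, the nearest being SNF4 at 1.62, behind 511 other genes. The distance keeps the size of the changes, and SUC2 spanned 5.45 log2 where SNF4, the widest of the others, spanned 1.57. No gene of the set could therefore come close whatever its pattern, and likeness in the order of groups alone was not measured. These distances describe 15 arrays in 3 groups and carry no test.

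Nearest to MIG2 were PMP3, for a small plasma membrane protein (0.19), and SLX5, for a subunit of a ubiquitin ligase (0.21). Nearest to SNF4 were MSC6 (0.14) and PHO81, for an inhibitor in phosphate signalling (0.17). Nearest to SNF1 were SNX4, for a sorting nexin (0.22), and HRD1, for a ubiquitin ligase of the endoplasmic reticulum (0.23), whose WT LD mean of 2.52 was under the background level.

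**Figure D3:**
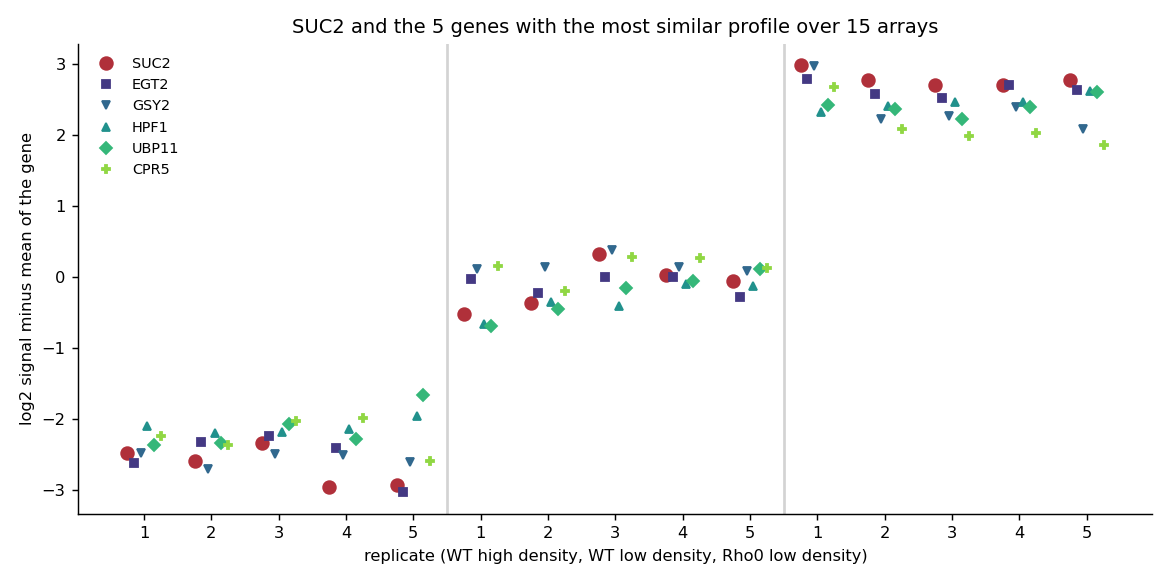
Log2 signal minus the mean of the gene over 15 arrays (vertical axis) for SUC2 and the 5 genes with the smallest root mean square difference to it, by group and replicate (horizontal axis). All 6 genes take 3 separate levels, low in WT HD, middle in WT LD and high in Rho0 LD.

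Other genes of the pathway were counted in 7 lists, chosen with earlier results known and described without a test. Their counts are read against the shares of all genes called higher and lower, 26.2% and 41.1% in WT LD against WT HD, 44.6% and 22.7% in Rho0 LD against WT LD, and 37.9% and 34.4% in Rho0 LD against WT HD. HXK1, for a hexokinase that glucose represses as it does SUC2, had the largest rise of the list genes in WT LD and in Rho0 LD against WT HD. HXK1 averaged 8.28 in WT HD, 11.39 in WT LD and 13.14 in Rho0 LD, rises of 3.11 ± 0.20 and 1.74 ± 0.20 log2 (adjusted p = 1.82e-10 and 3.8e-07). Within arrays the change of SUC2 was below that of HXK1 from WT HD to WT LD (-0.57, exact permutation p = 0.0397, adjusted p = 0.0476) and above it from WT LD to Rho0 LD (1.16, exact p = 0.00794, adjusted p = 0.0159). This pair was chosen after these values had been seen. Taking the largest riser of the lists in WT LD favours the direction of the first difference, so its p-value is descriptive only. Over the 12 measured genes for galactose, maltose and other sugars, HXK1 included, 4 rose and 3 fell in WT LD against WT HD, 7 rose and 3 fell in Rho0 LD against WT LD, and 8 rose and 3 fell in Rho0 LD against WT HD (median changes -0.05, 0.64 and 0.54, with 67.2%, 67.3% and 72.4% of all genes called). The first split was 5 and 2 with equal S. cerevisiae medians, 4 and 5 with equal S. pombe medians and 3 and 4 with equal spike-in signals. The second was 5 and 3 with quantile normalization, 6 and 4 with equal S. cerevisiae medians and 9 and 3 with equal spike-in signals. The third was 7 and 3 with equal S. cerevisiae medians and 9 and 2 with equal spike-in signals. GAL2, for the galactose permease, went the other way from SUC2 and fell 15.5-fold from WT HD to Rho0 LD, and MAL33, for a maltose activator, fell 3.31-fold from WT LD to Rho0 LD. MAL32, for a maltase, rose by 3.26 log2 from WT HD to Rho0 LD on a probe set of the kind that can match more than 1 transcript. GAL4 and MAL12 were not analysed here.

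Of the 9 partners, upstream kinases and phosphatase genes of the Snf1 kinase, 4 rose and 4 fell in WT LD against WT HD, 5 rose and 0 fell in Rho0 LD against WT LD (3 calls without Rho0 LD replicate 1), and 5 rose and 1 fell in Rho0 LD against WT HD (median changes -0.12, 0.31 and 0.62), where all genes were called higher in 26.2%, 44.6% and 37.9% and lower in 41.1%, 22.7% and 34.4%. With quantile normalization 4 rose and 2 fell in the first comparison and 5 rose and 0 fell in the third, where equal S. cerevisiae medians gave 5 and 2. REG2, for the paralog of Reg1, stepped up as SUC2 did, from 6.31 to 8.12 and 9.30 (1.82 ± 0.12 and 1.18 ± 0.12 log2, limma adjusted p = 2.77e-10 and 8.92e-08), where REG1 was not called. GLC7, for the phosphatase, rose by 0.96 ± 0.12 from WT HD to WT LD and by 1.27 ± 0.12 from WT HD to Rho0 LD. Of the β subunits that partner with SNF1 and SNF4, GAL83 rose by 1.75 ± 0.23 and SIP1 by 0.81 ± 0.16 in Rho0 LD against WT LD, while SIP2 differed by -0.10 ± 0.16 (adjusted p = 0.586). SIP1 fell by 0.72 log2 in WT LD against WT HD. SAK1, for an upstream kinase, was near background, from 2.31 to 3.02, and its fall between WT HD and Rho0 LD (-0.38) turned to 0.07 with equal spike-in signals.

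Of 6 corepressors and partners of Mig1, 1 rose and 3 fell in WT LD against WT HD, 3 rose and 2 fell in Rho0 LD against WT LD, and 2 rose and 2 fell in Rho0 LD against WT HD (medians -0.45, 0.31 and -0.19), beside 67.2%, 67.3% and 72.4% of all genes called. With equal spike-in signals the splits of Rho0 LD were 4 and 1 against WT LD and 3 and 1 against WT HD. NRG1, for another repressor of SUC2, fell 3.77-fold from WT LD to Rho0 LD (-1.91 ± 0.16, adjusted p = 4.45e-09), in the comparison in which MIG2 fell too. HXK2, for the hexokinase that takes part in Mig1 repression, rose by 1.02 ± 0.15 from WT HD to WT LD and by 1.72 ± 0.15 from WT HD to Rho0 LD. MSN5, for the exportin that carries Mig1 out of the nucleus, fell by 0.87 log2 in WT LD against WT HD and rose by 1.44 ± 0.15 in Rho0 LD against WT LD. CYC8 was not called, with WT LD and Rho0 LD means under the background level.

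Of 5 sensor and signalling genes upstream of MTH1 and STD1, 0 rose and 4 fell in WT LD against WT HD, 2 rose and 2 fell in Rho0 LD against WT LD (2 calls in all without Rho0 LD replicate 5, WT LD replicate 1 or WT LD replicate 2), and 0 rose and 2 fell in Rho0 LD against WT HD (medians -0.77, 0.13 and -0.07), where 41.1%, 22.7% and 34.4% of all genes were called lower. The first split was 1 and 3 with quantile normalization or equal S. cerevisiae medians, the second 1 and 2 with these, 2 and 1 with equal S. pombe medians and 3 and 1 with equal spike-in signals, which gave 1 and 1 in the third. RGT2, for the sensor of high glucose, fell from 6.50 to 5.34 and 3.95 (-1.16 ± 0.17 and -1.39 ± 0.17). GRR1, for the F-box protein that marks Mth1 for degradation, rose by 1.11 ± 0.13 in Rho0 LD against WT LD. Among 4 hexose transporter genes under Rgt1, 1 rose and 2 fell, 0 rose and 2 fell, and 1 rose and 2 fell in the 3 comparisons (medians -0.29, -0.67 and -1.06), against the same shares of all genes. The first was 1 and 1 with equal S. cerevisiae medians and the second 1 and 1 with equal spike-in signals. HXT4 rose by 2.49 ± 0.16 from WT HD to WT LD and HXT1 fell by 2.00 log2 from WT LD to Rho0 LD. HXT3 fell by 0.63 log2 from WT HD to WT LD.

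Of 6 activators that depend on Snf1, 1 rose and 2 fell, 3 rose and 1 fell, and 2 rose and 3 fell in the 3 comparisons (medians -0.09, 0.31 and -0.29), beside 26.2%, 44.6% and 37.9% of all genes called higher and 41.1%, 22.7% and 34.4% lower. With equal S. cerevisiae medians the first split was 2 and 2, and with equal spike-in signals the others were 5 and 0, and 3 and 1. HAP4, for the activator of respiratory genes, rose by 2.08 ± 0.17 from WT HD to WT LD and by 2.79 ± 0.17 from WT HD to Rho0 LD. CAT8, for an activator of gluconeogenic genes, rose by 1.05 ± 0.13 and RDS2 fell by 0.67 log2 from WT LD to Rho0 LD, the latter at 0.01 with equal spike-in signals. SIP4 fell by 1.69 log2 from WT HD to WT LD, to a mean of 2.91 near background. Of 12 genes of SWI/SNF, the remodelling complex found through mutants that cannot turn on SUC2, 3 rose and 7 fell, 6 rose and 3 fell, and 5 rose and 4 fell (medians -0.60, 0.42 and -0.05), beside the same shares of all genes. With equal spike-in signals the SWI/SNF splits were 1 and 7, 9 and 1, and 6 and 3, the first was 4 and 5 with quantile normalization, the second 8 and 2 with equal S. pombe medians, and the third 4 and 5 with equal S. cerevisiae medians. SWI1 fell by 2.34 log2 from WT HD to WT LD, where SNF2, for the ATPase, rose by 0.68 ± 0.17, a call lost with equal spike-in signals (0.45, adjusted p = 0.0988). From WT LD to Rho0 LD ARP9 rose by 1.72 ± 0.21 and SNF11 fell by 1.68 log2. From WT HD to Rho0 LD SNF2 rose by 1.61 ± 0.17 and ARP7 fell by 2.11 log2, to a mean of 2.59 at the edge of background. Except for SAK1 and RDS2 as given, each called change named from the 7 lists kept its direction with the 4 other scalings of the arrays.

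**Figure D4:**
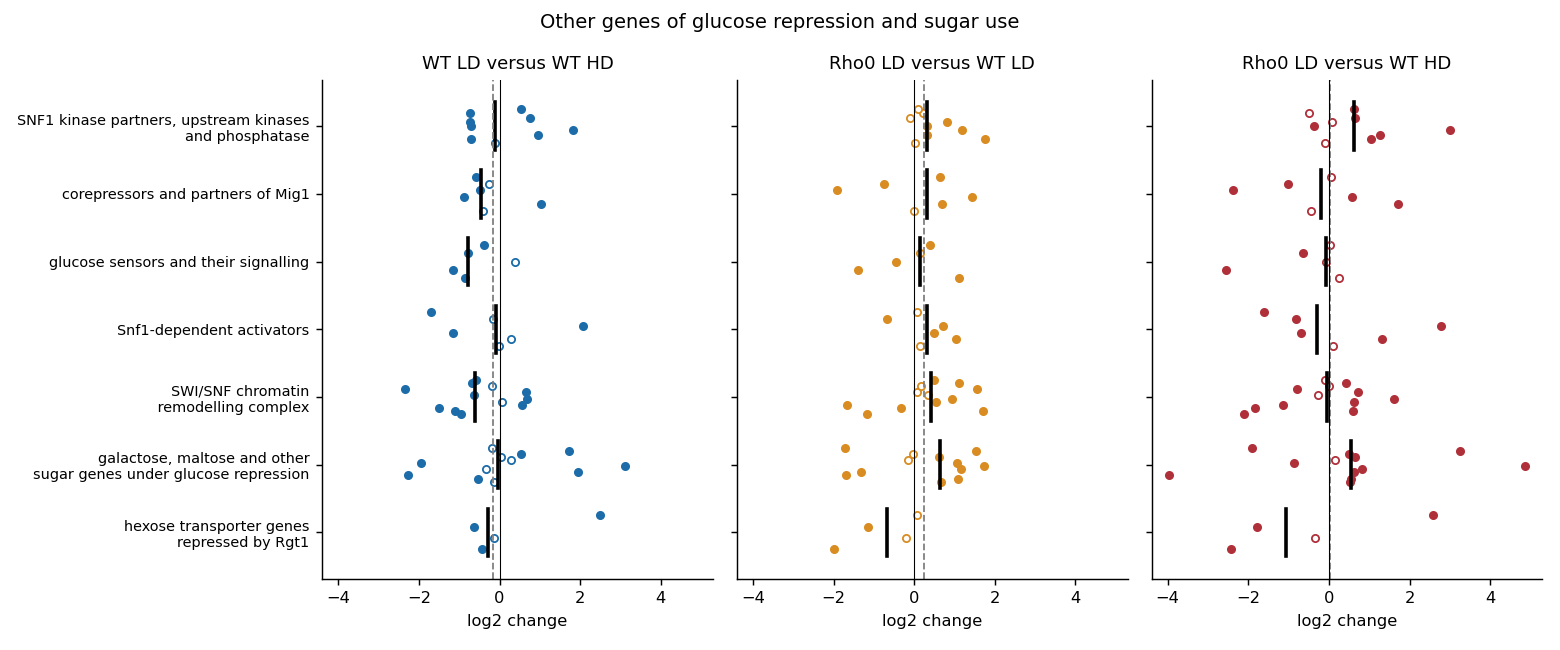
Log2 change (horizontal axis) of each gene in 7 pathway lists (rows) for the 3 comparisons; filled points have an adjusted p under 0.05, a black bar is the median of the list and the dashed line the median of all genes. Lists scatter to both sides of 0 in each comparison, with HXK1 farthest to the right at 3.11 in WT LD against WT HD and 4.86 in Rho0 LD against WT HD.

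Set side by side under 5 scalings of the arrays, the changes of SUC2, of SNF4 and MIG2 in Rho0 LD, and of SNF1 and RGT1 in the comparisons in which they were called stayed on one side of 0. Those of MIG1, MIG3 and MTH1 lay on both sides of 0 in all 3 comparisons, the called fall of MIG3 in WT LD included.

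**Figure D5:**
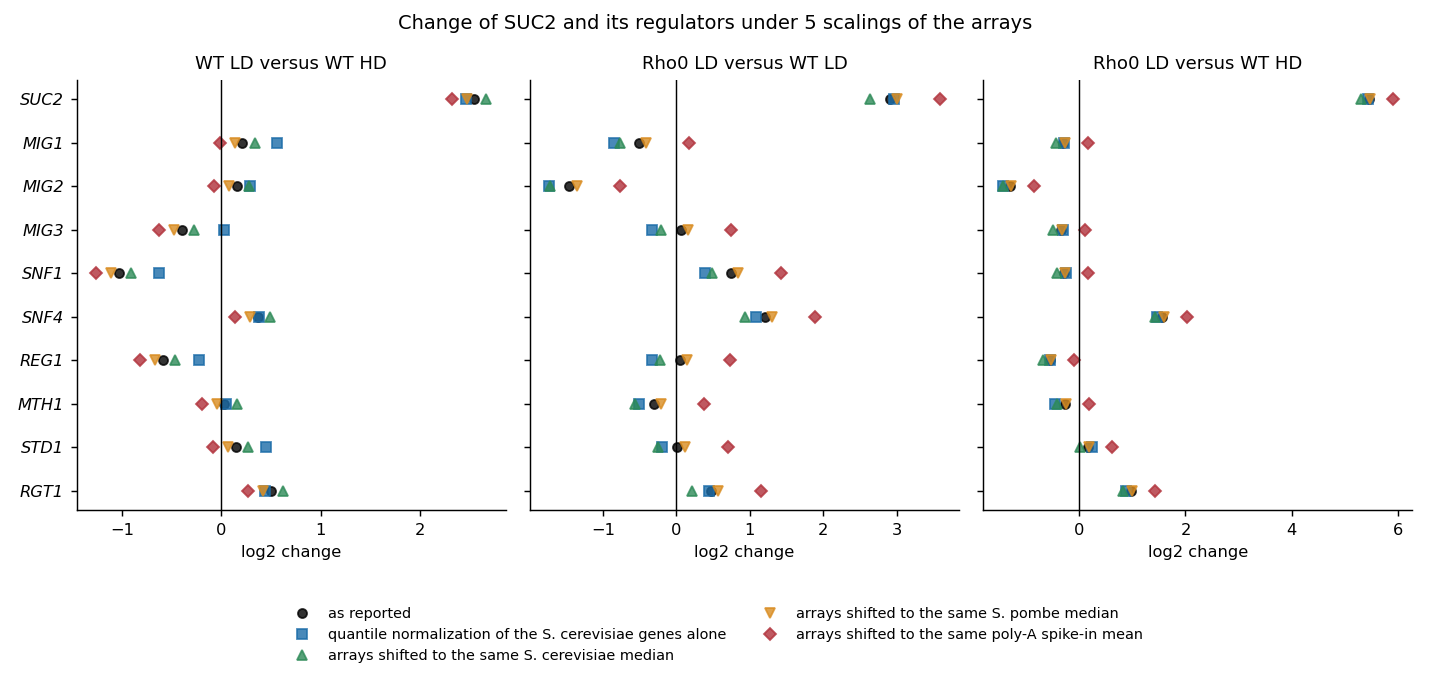
Log2 change (horizontal axis) of the 10 genes in each comparison as reported and with 4 other scalings of the arrays (symbols). SUC2 stays between 2.32 and 2.67, 2.64 and 3.59, and 5.31 and 5.90, whereas genes with small changes cross 0, most often with equal poly-A spike-in signals.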

How the data were processed

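RNA from 15 cultures or fractions was hybridized to Affymetrix Yeast Genome 2.0 arrays, 5 per group. Per the submitters' processing notes, the authors ran RMA with Affymetrix Expression Console and deposited the resulting log2 signal per probe set; versions are not given in the sources used here. RMA gives the arrays a common probe distribution, so each value measures a transcript relative to the others on its array. The given annotation named 1 gene for 7244 of 10928 probe sets, and 5498 of these named a gene of the S288C reference table. The probe set with the highest mean represented each of 5449 genes, and each of the 10 genes described here had 1 probe set. The remaining 1746 named probe sets were taken as Schizosaccharomyces pombe, and the 95th percentile of their means, 2.56 log2, served as the background level. Background correction could not be varied from these values.

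In limma 3.58.1 (R 4.3.3, lmFit and eBayes without a trend) the 3 groups were fitted together on 15 arrays. Two-sided p-values took the Benjamini-Hochberg adjustment over 5449 genes, and calls were made below 0.05. Intervals are 95% intervals of that fit. Exact permutation tests over arrays (scipy 1.17.1) compared single values, with 0.00794 as the smallest p that 5 against 5 arrays allow. Of each pathway list the called genes with the largest rise and fall are named in each comparison, and GLC7, SIP2, SIP1 in Rho0 LD, MAL32 and CYC8 were added after their values were seen, as were the pairs compared within arrays and their repeat after quantile normalization. Similar genes were chosen by the root mean square difference of mean-centred values. The scripts were tested on simulated data. The members, lists and alternatives were chosen with earlier results of these data known. The alternatives were a fit of 10 arrays, a replicate block, trend and robust moderation, a filter on dim genes, 4 other scalings, the mean over probe sets, array weights, leaving out each array, and limma's treat with a threshold of 1.5-fold. A planned search of promoters and comparison of proteins was not run.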

Additional observations from a re-analysis of the deposited data

Results flagged for a closer look

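In each group of 5 arrays the highest or lowest value was singled out where its gap to the nearest other array passed Dixon's 95% limit of 0.71 of the range of the group. Of 57 groups checked, 30 of them of the 10 genes, 6 held such an array, and chance alone singles out about 5% of groups. SUC2 read 13.00 log2 on Rho0 LD replicate 1, with the nearest array at 12.79. MIG1 read 3.10 on Rho0 LD replicate 4 (nearest 3.70). MIG2 read 5.99 on WT HD replicate 2 (nearest 5.45). REG1 read 5.70 on WT HD replicate 1 (nearest 4.16), the largest gap of the 6. MTH1 read 7.30 on WT LD replicate 4 (nearest 6.74). The 25S 5′ probe set read 7.65 on WT HD replicate 3 (nearest 7.92).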

How the results depend on the processing

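The changes of SUC2 in all 3 comparisons, of MIG2 and SNF4 in both comparisons with Rho0 LD and the fall of SNF1 in WT LD kept their direction and call under all 11 other settings and with each of 15 arrays left out. The adjusted p of that fall of SNF1 reached 0.0492. Directions of small changes turned as follows, and the cause was not tested. In WT LD against WT HD, MIG3 came to 0.024 with quantile normalization, MTH1 to -0.045 with equal S. pombe medians, and with equal spike-in signals MTH1 came to -0.20, MIG1 to -0.016, MIG2 to -0.071 and STD1 to -0.084. In Rho0 LD against WT LD, MIG3, REG1 and STD1 came to -0.33, -0.33 and -0.20 with quantile normalization and to -0.21, -0.22 and -0.25 with equal S. cerevisiae medians. MIG1 and MTH1 came to 0.17 and 0.38 with equal spike-in signals, and MIG3 and REG1 to -0.027 and -0.015 with array weights. In Rho0 LD against WT HD, equal spike-in signals took MIG1 to 0.16, MIG3 to 0.11, SNF1 to 0.17 and MTH1 to 0.18. Leaving out single arrays, MTH1 ranged from -0.086 to 0.25 in WT LD against WT HD, and in Rho0 LD against WT LD MIG3 ranged from -0.010 to 0.11, REG1 from -0.073 to 0.14 and STD1 from -0.028 to 0.061. Of the 10 genes, 5 were called in WT LD against WT HD, 3 with the 10 arrays of these groups alone, 2 with treat, which tests against a 1.5-fold change, and 3 to 6 with single arrays left out. In Rho0 LD against WT LD the count of 5 came to 8 with equal spike-in signals and 3 with treat. In Rho0 LD against WT HD the count of 4 came to 7 with equal S. cerevisiae medians and ranged from 4 to 7 with single arrays left out. Over all genes treat called 1606, 1596 and 2230, where 3663, 3665 and 3944 were called. With treat the lists named here held fewer calls, while those not named in a comparison moved by 1.5-fold or less. WT LD against WT HD kept 2 Snf1 kinase partners, 1 corepressor, 1 sensor gene, 3 SWI/SNF genes and 1 hexose transporter gene. Rho0 LD against WT LD kept 2 partners, 2 corepressors, 2 sensor genes, 1 activator, 5 SWI/SNF and 6 sugar genes. Rho0 LD against WT HD kept 2 partners, 2 corepressors, 1 sensor gene, 3 activators, 4 SWI/SNF and 4 sugar genes. In Rho0 LD against WT LD the called Snf1 kinase partners numbered 3 with quantile normalization, 3 with equal S. cerevisiae medians, 9 with equal spike-in signals and 3 to 5 with single arrays left out, and the called sensor genes 2 to 4. Same-numbered samples were not treated as pairs: their deviations correlated from -0.05 to 0.37, 8 of 15 over 0.1, and 7 of 15 samples correlated best with one of their own number. With the number as a replicate block REG1 was called in WT LD against WT HD (-0.59, adjusted p = 0.0161) and in Rho0 LD against WT HD (-0.54, adjusted p = 0.0224), and over all genes 1478 rose and 2298 fell, 2497 rose and 1272 fell, and 2120 rose and 1927 fell in the 3 comparisons. Signals near the background level of 2.56 limit STD1 and SNF1 in WT LD. Among the list genes they also limit, among others, SAK1, CYC8 and ELM1, SIP4 in WT LD and Rho0 LD, and ARP7 and NRG2 in Rho0 LD. The same holds in WT LD for TAF14 (mean 2.23) and SWP82 (mean 2.57), which count among the SWI/SNF calls. With 5 arrays a group the precision of all values is limited.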
